A study of Mus musculus with 6 samples.

Results

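The mitochondrial ribosomal proteins and the factors that work with them were described in C2C12 cells, an established line of mouse myoblasts, after cyclic stretching. The members were all rows whose symbol begins with Mrpl or Mrps followed by a number, with or without a final a, b or c, and 9 named genes, namely Dap3, Mterf3, Mterf4, Gfm1, Gfm2, Tufm, Tsfm, Mtif2 and Mtif3. The pattern matched 78 symbols, giving 87 members among 22375 rows. All 87 were among the 11593 genes tested, those whose mean over the 6 libraries reached 0.5 FPKM (fragments per kilobase of transcript, scaled to library size), so no member was lost to that filter. The 2 groups were unstretched cells (CON, 3 libraries) and cells stretched for 4 h (4H, 3 libraries) at 15% elongation on elastic plates coated with poly-lysine, which the cells nearly covered when seeded. Both groups were the same line with no genetic change or drug named, RNA was selected by poly(A), and the libraries were strand-specific. Stretching of this line stands in for mechanical overloading of muscle. The labels call the 3 libraries of a group replicate biosamples but do not say that they came from separate cultures, so p-values measure the spread between these libraries, which may be technical.

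Mitochondria translate a small set of messages from their own genome, all of them for subunits of the respiratory chain and ATP synthase. The ribosome that does this has a large and a small subunit, whose RNAs are made inside the organelle while every protein of the particle is encoded in the nucleus, made on cytosolic ribosomes and imported. Many of these proteins descend from bacterial ribosomal proteins and the others exist in mitochondrial ribosomes alone. Initiation factors place the first tRNA, elongation factors deliver charged tRNAs and move the ribosome along, and recycling factors part the subunits at the end. Muscle, which depends on respiration, is among the tissues affected in inherited defects of this machinery.

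The table gave FPKM without counts, so the depth in reads is unknown. The FPKM of a library summed to between 385146 and 397260, and the log2 values correlated at 0.992 to 0.993 (Pearson, across genes) within a group and at 0.967 to 0.97 between groups. All 6 myoblast markers were present, with a summed level of 136 to 139 FPKM in CON and 176 to 185 in 4H. Of the 4 macrophage or leukocyte markers Cd68 was present, and Csf1r was present in 4H, and their sum was 6.73 to 8.51 FPKM in CON and 16.5 to 18.5 in 4H. Ptprc and Adgre1, which define those cells, were at 0 in all 6 libraries. Fibroblast markers (3 of 5 at 0.5 FPKM or more) summed to 8.49 to 9.66 in CON and 10.0 to 12.3 in 4H, and markers of differentiating myocytes (3 of 6) to 1.797 to 2.40 and 3.09 to 3.74. Myog, on the latter list, stayed below 0.5 FPKM and was at 0.136 to 0.281 in CON and 0 to 0.0794 in 4H. No endothelial or epithelial marker reached 0.5 FPKM, with sums of at most 0.387 and 0.553. The part of these markers in the changes below was not tested.

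Messages for the mitochondrial ribosome were more often lower than higher after 4 h of stretching, and every change was small. Of the 87 members 28 were lower and 6 were higher in 4H at an adjusted p of at most 0.05 (limma, two-sided, Benjamini-Hochberg over all 11593 genes). That is 32.2% lower and 6.90% higher, against 24.1% lower and 22.6% higher among all genes tested, and 39.1% against 46.7% in either direction. The share of members called in either direction was thus below that of all genes, while the share called lower was above it, and neither difference was tested. No member also reached a log2 fold change of 1 in either direction, a size that 450 genes or 3.88% reached. The fold changes, on the log2(FPKM + 0.5) scale, had a median of -0.12 over the members and -0.01 over all genes, and 65 of the 87 members (74.7%) had a negative sign against 52.1% of all genes. These counts and medians describe the list and were not tested as a set.

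**Figure D1:**
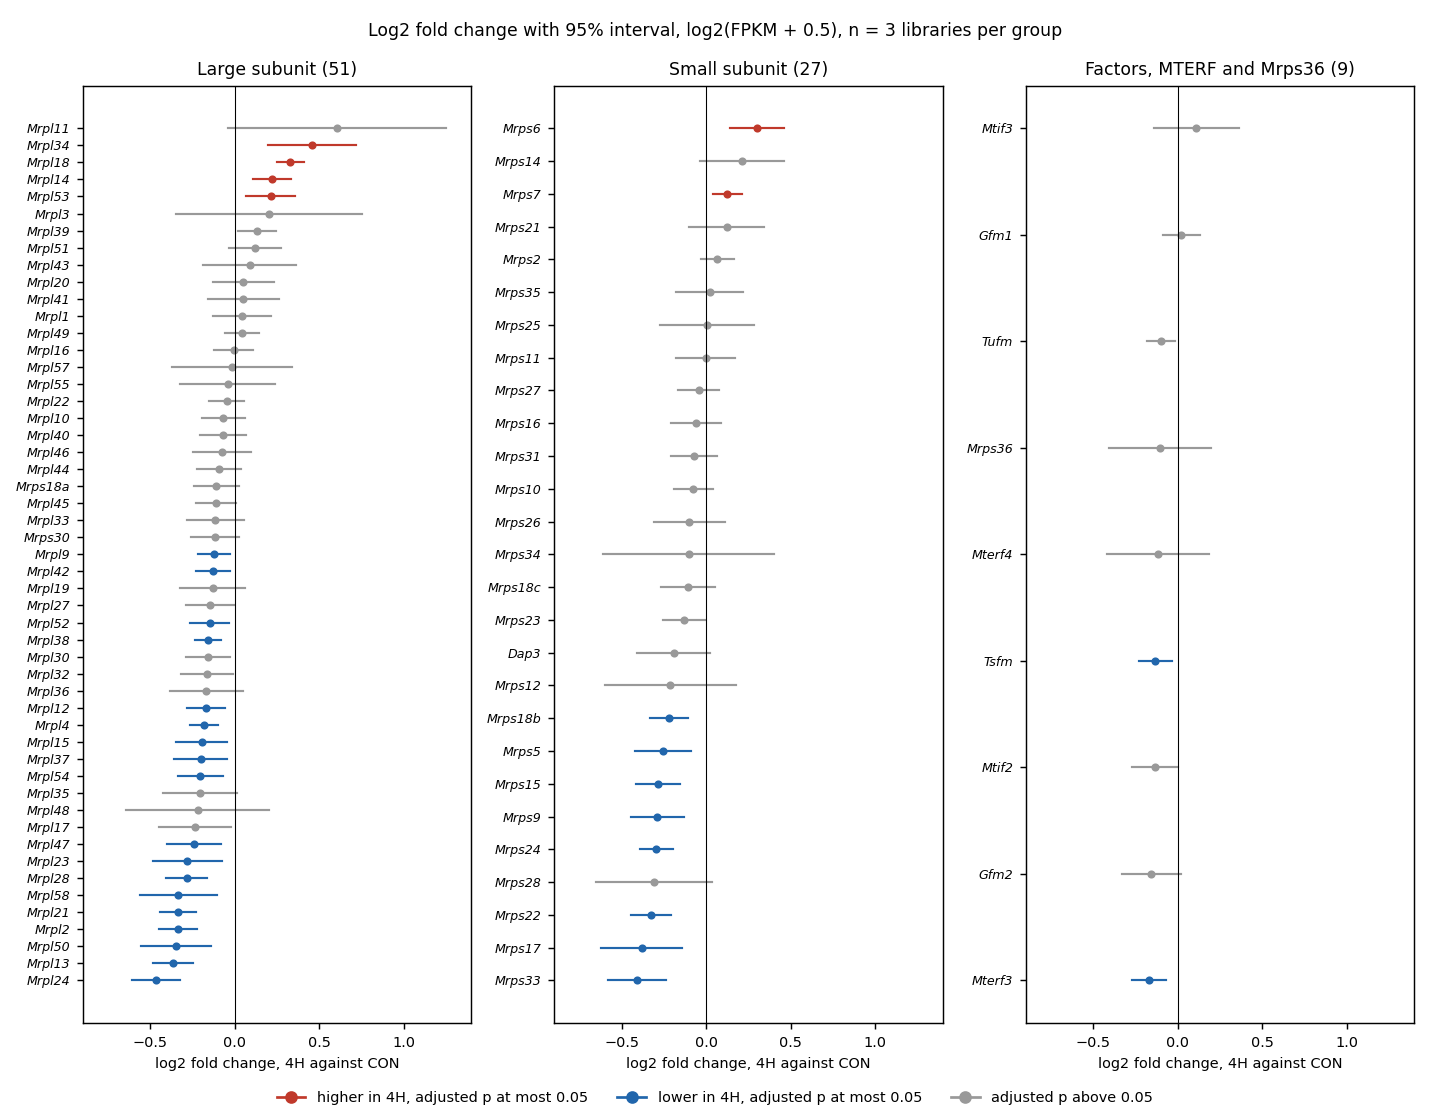
Log2 fold change of each of the 87 members in 4H against CON (points) with its 95% interval (lines), n = 3 libraries per group, for the large subunit, the small subunit, and the factors with Mrps36. The 28 members in blue were lower and the 6 in red were higher at an adjusted p of at most 0.05, and all lie between -0.47 and 0.46.

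The groups did not overlap in 47 members (54.0%), of which 36 were lower and 11 higher in every 4H library, against 56.7% of all genes tested. All 28 members called lower and all 6 called higher were among them, and 13 members whose groups did not overlap did not pass the test. With 3 libraries against 3 an exact permutation test of a single gene cannot go below p = 0.1, so the calls rest on the spread that limma shares between genes. That spread was like that of other genes, with a median SD within groups of 0.085 on the log2 scale for the members and 0.082 for all genes. In bulk RNA fewer cells of a type and less RNA per cell cannot be told apart, and FPKM gives a share of the RNA of a library and not an amount per cell.

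The shift had nearly the same size in the 3 stretched libraries. The median over the 87 members of the log2 ratio to the mean of CON was -0.12, -0.12 and -0.11 in the 4H libraries and -0.01, -0.01 and 0.02 in the CON libraries. Over all genes tested the same median lay between -0.02 and 0.00 in all 6 libraries. Summed over the 51 genes of the large subunit, expression was 1326, 1302 and 1354 FPKM in CON (1327 ± 25.8, SD, n = 3) and 1208, 1259 and 1238 FPKM in 4H (1235 ± 25.8). For the 27 genes of the small subunit the sum was 620, 598 and 619 FPKM in CON (612 ± 12.9) and 563, 571 and 586 FPKM in 4H (573 ± 11.5). The sums of every stretched library were below those of every unstretched library for both subunits.

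**Figure D2:**
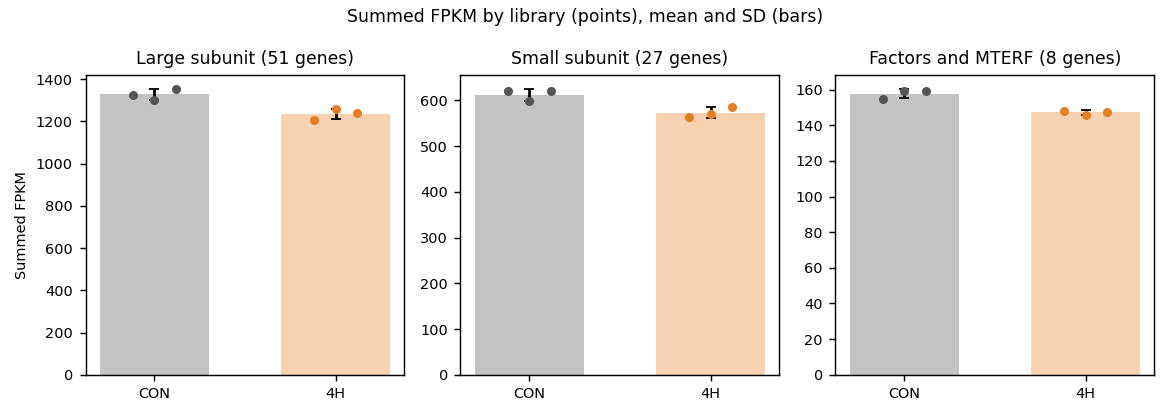
Summed FPKM of the large subunit genes, the small subunit genes and the 8 translation factor and MTERF genes in each library (points), with the mean and SD of the 3 libraries of CON and of 4H (bars). The stretched libraries lie below the unstretched libraries in all 3 panels, for example 1235 ± 25.8 against 1327 ± 25.8 FPKM for the large subunit.

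By subunit, 18 of the 51 large subunit genes were lower (35.3%) and 4 higher (7.84%), with a median of -0.12 on the log2 scale. In the small subunit 8 of 27 genes were lower (29.6%) and 2 higher (7.41%), with a median of -0.10. The shares over all genes tested were 24.1% lower and 22.6% higher, and the small subunit share of lower genes was near the first. Among proteins with a bacterial counterpart 16 of 46 were lower (34.8%) and 5 higher (median -0.14), and among those at places particular to the mitochondrial ribosome 10 of 32 were lower (31.2%) and 1 higher (median -0.11). The latter class holds Mrps18a and Mrps18b, which are related to a bacterial protein but sit elsewhere in the particle. Differences between these classes were not tested. Mrps36, whose protein is not placed in either subunit here, was at 21.9 ± 4.03 FPKM in CON and 20.2 ± 2.50 in 4H (adjusted p = 0.54).

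The largest fall was that of Mrpl24, which encodes the mitochondrial counterpart of the bacterial large subunit protein L24 (ENSMUSG00000019710, chr3:87919506-87923672, plus strand, GRCm38). It was at 47.2, 45.3 and 43.7 FPKM in CON and at 29.8, 34.97 and 33.4 FPKM in 4H, with no overlap. The mean went from 45.4 ± 1.77 to 32.7 ± 2.68 FPKM, a log2 fold change of -0.47 ± 0.06 (SE, adjusted p = 0.000445, limma). The next was Mrps33, a small subunit protein that bacteria lack (ENSMUSG00000029918, chr6:39801804-39810988, minus strand). Its CON libraries held 12.8, 11.2 and 13.3 FPKM and its 4H libraries 8.85, 9.65 and 9.14 FPKM, and each stretched value was below each unstretched one (log2 fold change -0.41 ± 0.07, SE, adjusted p = 0.00237). Of the 75-base stretches of its longest transcript 16.7% also occur in Gm5776, so part of its reads may not be assignable to it alone, which was not tested.

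On the other side stood Mrpl34, the counterpart of bacterial L34, one of the smallest proteins of the large subunit (ENSMUSG00000034880, chr8:71464959-71465747, plus strand). It was at 10.7, 12.3 and 11.1 FPKM in CON and at 13.6, 19.0 and 15.2 FPKM in 4H, all 3 higher, with the second library standing above the others (log2 fold change 0.46 ± 0.11, SE, adjusted p = 0.0111). Mrpl11 had a larger estimate and did not pass the test. Its protein belongs to the stalk base where elongation factors bind (ENSMUSG00000024902, chr19:4962147-4966999, plus strand). It was at 21.9, 9.26 and 21.1 FPKM in CON and at 24.9, 26.5 and 23.7 FPKM in 4H, so the estimate of 0.61 ± 0.28 (SE, adjusted p = 0.112) came largely from CON replicate 2, and without that library it was 0.22 with an adjusted p of 0.0229.

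The RefSeq promoters (GRCm38.p6, 250 bases before to 50 after the annotated gene start) of these 4 genes, the pairs with the largest rises and the largest falls among members with a mean of at least 5 FPKM, are shown so that the ends of the range can be compared. Each is written 5′ to 3′ on the strand of the gene, and capitals mark a match to an ETS core or a CCAAT box on either strand.
Mrpl24, chr3:87919294-87919593, plus strand: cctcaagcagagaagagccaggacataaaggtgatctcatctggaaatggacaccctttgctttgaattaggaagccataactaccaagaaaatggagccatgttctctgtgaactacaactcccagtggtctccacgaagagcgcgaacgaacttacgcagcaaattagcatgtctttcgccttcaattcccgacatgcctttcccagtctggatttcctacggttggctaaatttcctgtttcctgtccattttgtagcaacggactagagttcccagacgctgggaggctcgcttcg
Mrps33, chr6:39810887-39811186, minus strand: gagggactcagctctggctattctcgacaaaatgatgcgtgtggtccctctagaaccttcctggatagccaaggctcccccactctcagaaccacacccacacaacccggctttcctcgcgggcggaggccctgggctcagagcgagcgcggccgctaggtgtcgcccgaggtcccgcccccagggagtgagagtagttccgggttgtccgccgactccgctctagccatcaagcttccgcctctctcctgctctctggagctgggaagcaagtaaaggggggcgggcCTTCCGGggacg
Mrpl34, chr8:71464676-71464975, plus strand: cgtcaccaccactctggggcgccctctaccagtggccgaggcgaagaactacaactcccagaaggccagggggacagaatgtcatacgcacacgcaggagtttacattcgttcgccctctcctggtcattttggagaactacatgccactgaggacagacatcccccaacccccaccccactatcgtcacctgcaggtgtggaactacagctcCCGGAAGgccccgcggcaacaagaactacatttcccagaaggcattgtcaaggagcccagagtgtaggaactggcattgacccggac
Mrpl11, chr19:4962056-4962355, plus strand: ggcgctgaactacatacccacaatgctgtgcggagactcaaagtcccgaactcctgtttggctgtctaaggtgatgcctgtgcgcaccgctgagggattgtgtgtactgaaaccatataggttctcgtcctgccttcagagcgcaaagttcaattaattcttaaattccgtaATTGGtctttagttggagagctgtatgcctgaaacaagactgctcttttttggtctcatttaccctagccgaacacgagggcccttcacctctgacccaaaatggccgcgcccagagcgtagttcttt

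Promoters of nuclear genes for mitochondrial proteins are known for binding sites of nuclear respiratory factors, one of which is an ETS protein (GABP), and of YY1. RefSeq promoters were found for 75 of the 87 members, 81 promoters in all, and 6 motifs were searched for on both strands. The ETS core CCGGAAG occurred in 30 of the 81 (37.0%), against 18.2% of the promoters of all genes tested and 8.86% of all promoters of the table. The YY1 core AAGATGGC occurred in 12 (14.8%, against 4.61% and 2.75%) and the NRF1 core GCGCATGC in 8 (9.88%, against 5.40% and 2.71%). A CCAAT box (CCAAT) was in 38.3%, near the 37.9% of tested genes, a TATA box (TATAAA) in 8.64% against 6.82%, and an E-box (CACGTG) in 8.64% against 10.0%. No motif of the 6 contains another, and a match describes letters and not a bound factor.

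The median changes after stretching were nearly equal with and without an ETS match. The 30 members with a match had a median log2 fold change of -0.11, with 6 lower (20.0%) and 3 higher (10.0%), and the 45 without one also had a median of -0.11, with 16 lower (35.6%) and 3 higher (6.67%). Beside the 24.1% lower and 22.6% higher of all genes tested, the share lower was thus smaller with a match and larger without one, a difference that was not tested. For YY1 the medians were -0.15 with and -0.11 without, and for NRF1 -0.12 and -0.11. Members of opposite direction shared the ETS core, as the following stretches show, each on the strand on which the core, in capitals, reads forward.
Mrpl34 (higher), chr8:71464879-71464905, plus strand: actacagctcCCGGAAGgccccgcggc
Mrpl18 (higher), chr17:12916315-12916341, minus strand: actgaaaacgCCGGAAGtagggggctg
Mrpl21 (lower), chr19:3283039-3283065, minus strand: acagtcccaaCCGGAAGcggaagcagc
Mrps22 (lower), chr9:98601674-98601700, minus strand: acctctcgagCCGGAAGttgctctatc

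Messages of cytosolic ribosomal proteins start with a cytosine and a run of pyrimidines, through which their translation is controlled. At the RefSeq start, a C followed by 4 pyrimidines was found in 0 of the 81 promoters of members, in 14 of 72 promoters of cytosolic ribosomal protein genes (19.4%) and in 2.35% of the promoters of all genes tested. Annotated starts can miss the true first base, so these shares describe the annotation.

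After Mrpl24 the large subunit genes with the largest falls were Mrpl13, Mrpl50, Mrpl2, Mrpl21 and Mrpl58, each lower by 20.7% to 22.7% of its CON mean. Mrpl13, the counterpart of bacterial L13, was at 64.5, 61.7 and 70.7 FPKM in CON and at 51.4, 49.2 and 51.6 in 4H (log2 fold change -0.37 ± 0.05, SE, adjusted p = 0.000642). Its exons overlap on the opposite strand those of Mtbp, which was also lower (log2 fold change -0.58, adjusted p = 6.8e-05), and whether the counting used the strand is not given in the sources used here. Mrpl2, whose bacterial counterpart L2 lies beside the peptidyl transferase centre, was at 38.2, 38.5 and 37.7 FPKM in CON and at 31.8, 30.5 and 28.1 in 4H (-0.34 ± 0.05, adjusted p = 0.000716). Both genes had stretched values well below the lowest unstretched value.

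Mrpl21 was at 34.6, 36.0 and 38.3 FPKM in CON and at 27.8, 28.8 and 29.3 in 4H (log2 fold change -0.34 ± 0.05, SE, adjusted p = 0.000546). Mrpl50, a protein of mitochondrial ribosomes alone, was at 18.4, 17.1 and 18.3 FPKM in CON and at 12.1, 15.8 and 14.3 in 4H (-0.35 ± 0.09, adjusted p = 0.0137). Mrpl58, a peptidyl-tRNA hydrolase of the large subunit that can release chains from stalled ribosomes, was at 19.7, 19.5 and 19.5 FPKM in CON and at 12.9, 17.2 and 16.6 in 4H (-0.34 ± 0.10, adjusted p = 0.0238). In the last 2 genes 4H replicate 1 was the lowest library. Mrpl58 lost its call when any 1 of the 3 CON libraries was left out (adjusted p up to 0.063), and without 4H replicate 1 its log2 fold change was -0.21.

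The large subunit genes that rose besides Mrpl34 were Mrpl18, Mrpl14 and Mrpl53. Mrpl18, the counterpart of bacterial L18, which binds the 5S ribosomal RNA, had the smallest spread among them, with 32.5, 32.6 and 32.2 FPKM in CON and 39.8, 41.3 and 41.4 in 4H (log2 fold change 0.33 ± 0.03, SE, adjusted p = 0.000125). Its exons overlap Tcp1 on the opposite strand, a chaperonin gene at 244 to 251 FPKM in CON that moved the other way, to 225 to 229 in 4H. Mrpl14 was at 28.5, 26.5 and 29.3 FPKM in CON and at 32.3, 32.1 and 33.9 in 4H (0.22 ± 0.05, adjusted p = 0.00622), and Tmem63b, which overlaps it on the opposite strand, was also higher (0.34, adjusted p = 0.00165). Mrpl53 was at 27.4, 30.9 and 29.3 FPKM in CON and at 31.5, 33.7 and 36.5 in 4H (0.21 ± 0.06, adjusted p = 0.0265), but 73.7% of its 75-base stretches also occur in the overlapping gene Gm42688, so its value is uncertain. The call of Mrpl53 was lost without CON replicate 1 or 3 or 4H replicate 2 or 3 (adjusted p up to 0.0863).

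In the small subunit Mrps17 fell by 0.38 on the log2 scale after Mrps33 (SE 0.10, adjusted p = 0.0172), with 41.7, 35.1 and 35.1 FPKM in CON and 33.3, 25.6 and 26.9 in 4H. CON replicate 1 and 4H replicate 1 were each the highest of their group, and the gap between the groups was narrow, so that the call was lost without CON replicate 1 or 4H replicate 2 or 3 (adjusted p up to 0.057). Mrps22, a mitochondrial protein whose loss in people causes a respiratory chain disease, was at 30.8, 31.1 and 29.7 FPKM in CON and at 24.2, 25.8 and 22.7 in 4H (-0.33 ± 0.05, adjusted p = 0.00119). Mrps24, the counterpart of bacterial S3, was at 20.9 to 21.01 FPKM in the CON libraries and at 16.5, 17.1 and 17.4 in 4H (-0.29 ± 0.04, adjusted p = 0.000613). Its exons overlap those of Urgcp on the same strand, which was at 11.3 to 12.1 FPKM in CON and 12.1 to 14.3 in 4H.

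Mrps9, the counterpart of bacterial S9, was at 21.4, 22.4 and 22.8 FPKM in CON and at 17.9, 19.9 and 16.5 in 4H (log2 fold change -0.29 ± 0.07, SE, adjusted p = 0.00868). Mrps15, the counterpart of bacterial S15, was at 29.3, 32.7 and 30.1 FPKM in CON and at 23.7, 25.9 and 25.6 in 4H (-0.29 ± 0.06, adjusted p = 0.00351). Neither gene's groups overlapped.

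The small subunit genes that rose were Mrps6 and Mrps7. Mrps6, the counterpart of bacterial S6, had the highest mean of the small subunit and of all members, 75.2 FPKM, and was at 70.9, 62.6 and 68.1 FPKM in CON and at 78.7, 78.8 and 91.9 in 4H (log2 fold change 0.30 ± 0.07, SE, adjusted p = 0.00777). It shares exons on the same strand with Slc5a3, a myo-inositol transporter, which was at 11.2 to 13.0 FPKM in CON and 12.3 to 13.9 in 4H (adjusted p = 0.40). Mrps7 was at 22.9, 22.7 and 23.1 FPKM in CON and at 24.6, 25.3 and 25.1 in 4H (0.12 ± 0.04, adjusted p = 0.0251). This was the smallest rise called, and it passed in 1 of the 6 fits that left out a library, that without 4H replicate 1 (adjusted p up to 0.0756 in the others).

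**Figure D3:**
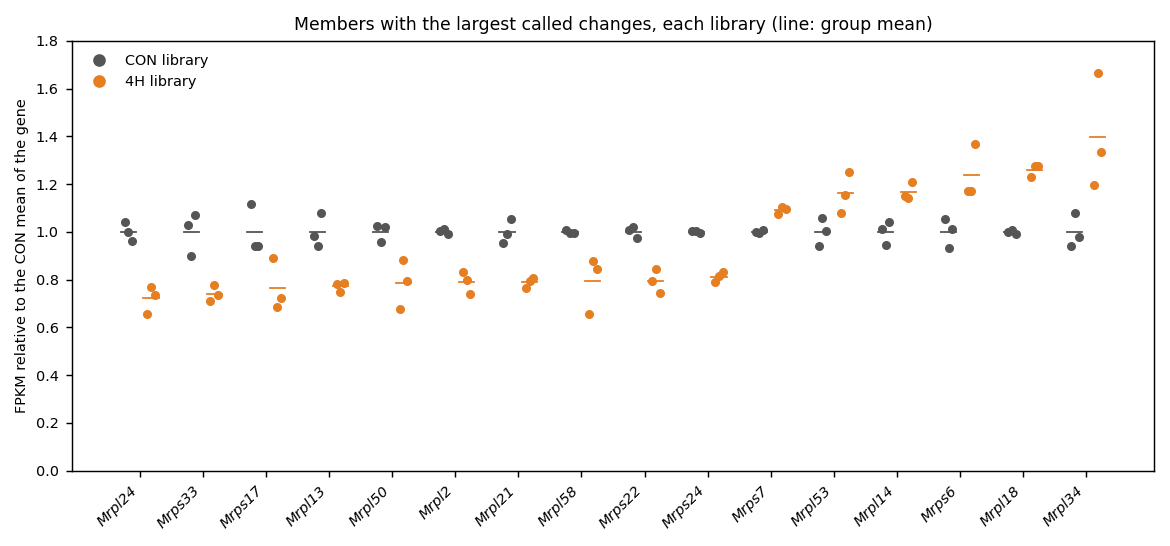
FPKM of each library relative to the CON mean of the same gene, for the 10 largest falls and the 6 rises among members called at an adjusted p of at most 0.05; grey points are CON libraries, orange points 4H libraries and lines group means. The groups do not overlap in any of these 16 genes, and the spread within 4H is widest for Mrpl34, at 13.6, 19.0 and 15.2 FPKM.

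The other 16 members called lower were changed less, with log2 fold changes from -0.28 to -0.12. They were Mrpl28, Mrpl23, Mrpl47, Mrpl54, Mrpl37, Mrpl15, Mrpl4, Mrpl12, Mrpl38, Mrpl52, Mrpl42 and Mrpl9 in the large subunit, Mrps5 and Mrps18b in the small subunit, and Mterf3 and Tsfm among the factors. Mrpl28, Mrpl4, Mrpl38, Mrps18b and Mterf3 kept the call whichever library was left out, and each of the other 11 lost it without 2 to 5 of the 6 libraries. Without CON replicate 1 the log2 fold change of Mrpl37 went from -0.20 to -0.12. Mrpl42 had the highest mean of the large subunit, 63.7 FPKM, and went from 66.6 ± 2.89 to 60.8 ± 2.35 FPKM (adjusted p = 0.0416). The lowest mean of the large subunit was that of Mrpl57, at 2.49 ± 0.12 FPKM in CON and 2.50 ± 0.67 in 4H, and the lowest of the small subunit that of Mrps25, at 4.28 ± 0.77 and 4.26 ± 0.34.

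Mammals have 3 genes descended from the bacterial S18 protein, and their products occupy different places in the ribosome, those of Mrps18b and Mrps18c in the small subunit and that of Mrps18a in the large. Mrps18b was at 57.6, 55.3 and 53.6 FPKM in CON and at 45.1, 47.2 and 50.4 in 4H, without overlap (log2 fold change -0.22 ± 0.05, SE, adjusted p = 0.00622), while 26.7% of its 75-base stretches occur also in Gm13552. Mrps18a was at 36.2, 34.0 and 38.7 FPKM in CON and at 33.9, 31.7 and 35.3 in 4H, with overlap (95% interval of the log2 fold change -0.24 to 0.02, adjusted p = 0.16). Mrps18c was at 34.8, 30.3 and 35.9 FPKM in CON and at 32.1, 32.04 and 29.2 in 4H, also with overlap (-0.11, 95% interval -0.27 to 0.05, adjusted p = 0.23). Without CON replicate 2 the log2 fold change of Mrps18c was -0.18 and passed the test (adjusted p = 0.0354), while without CON replicate 3 or 4H replicate 3 it was -0.06. The intervals of the 3 genes overlap, and the difference between them was not tested.

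Dap3 encodes a GTP-binding protein of the small subunit first known from work on cell death. It was at 34.4, 26.1 and 28.2 FPKM in CON and at 25.01, 24.8 and 27.2 in 4H, with CON replicate 1 above the other libraries (log2 fold change -0.19, 95% interval -0.41 to 0.02, adjusted p = 0.13). Without CON replicate 1 the log2 fold change of Dap3 was -0.08, and without CON replicate 2 it was -0.28 and passed the test (adjusted p = 0.0408).

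Among the translation factors Tsfm, the exchange factor that recharges the elongation factor Tu, was lower. It was at 31.3, 33.4 and 31.9 FPKM in CON and at 30.2, 28.3 and 29.5 in 4H (log2 fold change -0.13 ± 0.04, SE, adjusted p = 0.0328). On the opposite strand its exons overlap Avil, which was at 10.1 to 12.3 FPKM in CON and at 2.42 to 2.97 in 4H. The call of Tsfm was lost without CON replicate 2 or 3 or 4H replicate 2 or 3 (adjusted p up to 0.104). Tufm, the elongation factor Tu itself and the most abundant of the factors, was at 42.0, 43.1 and 44.6 FPKM in CON and at 39.6, 41.0 and 40.5 in 4H and missed the threshold (-0.10 ± 0.04, adjusted p = 0.058), with 63.2% of its 75-base stretches also in Gm9755.

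Gfm1, the elongation factor that moves the ribosome along the message, was at 22.6, 20.9 and 20.6 FPKM in CON and at 21.9, 21.7 and 21.4 in 4H, with a 95% interval of the log2 fold change from -0.09 to 0.13. Gfm2, its relative that acts in recycling, was at 11.5, 12.5 and 12.7 FPKM in CON and at 11.01, 9.87 and 11.9 in 4H (-0.33 to 0.02, adjusted p = 0.12). The initiation factor Mtif2 was at 14.8, 14.4 and 16.3 FPKM in CON and at 13.9, 13.2 and 14.2 in 4H, lower in every library but not past the test (-0.14 ± 0.06, adjusted p = 0.093). The second initiation factor, Mtif3, was at 5.33, 6.88 and 5.38 FPKM in CON and at 5.76, 6.38 and 6.87 in 4H (-0.14 to 0.36, adjusted p = 0.45).

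The 2 genes of the MTERF family encode proteins that bind mitochondrial nucleic acids and take part in building the ribosome. Mterf3 was at 21.5, 20.6 and 21.3 FPKM in CON and at 19.3, 18.8 and 18.04 in 4H, without overlap (log2 fold change -0.17 ± 0.04, SE, adjusted p = 0.0144). Mterf4, which brings a methyltransferase to the large subunit, was at 5.76, 7.43 and 6.82 FPKM in CON and at 6.65, 6.78 and 4.98 in 4H (95% interval -0.42 to 0.18). Over the 8 factor and MTERF genes 2 were lower, a share close to the 24.1% of all genes, and none higher, and their sum went from 158 ± 2.62 FPKM in CON to 147 ± 1.14 in 4H.

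In some members 1 or 2 libraries lay far from the others, and these examples were chosen after the values were seen. Besides Mrpl11 they were Mrpl3, at 17.2, 16.3 and 17.5 FPKM in CON and at 15.9, 31.4 and 15.1 in 4H, where the second 4H library lay above all others, Mrpl48, at 8.365, 4.84 and 5.36 FPKM in CON and at 5.64, 4.42 and 5.31 in 4H, and Mrps34, at 13.5, 9.38 and 19.7 FPKM in CON, on both sides of the 4H values, and at 11.5, 13.2 and 13.2 in 4H. None of these passed the test. Mrpl3 shares exons with Gm38077, and 36.9% of the 75-base stretches of Mrps34 also occur in its neighbour Nme3.

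The members lie on 17 chromosomes. Across the 87 genes Spearman's rho of the log2 fold change was -0.10 with the mean FPKM, -0.09 with transcript length and 0.06 with GC content. These are descriptions over genes measured in the same 6 libraries. In the annotation 14 members had exons shared on the same strand or at least 10% of their 75-base stretches in another gene. Without them 25 of 73 members were lower (34.2%, against 24.1% of all genes tested) and 4 higher (5.48%, against 22.6%), with a median of -0.13. Exons of 35 members overlap another gene on the opposite strand, among them Mrpl24, Mrpl21, Mrpl58, Mterf3 and Mrps7. Members were not left out on that account, and the strand setting of the counting is not given.

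Other genes of mitochondrial gene expression were counted for comparison. Of 12 tested genes for further ribosome proteins and for release and recycling, 5 were lower (41.7%, against 24.1% of all genes tested) and none higher (median log2 fold change -0.20), and the count lower was 3 without CON replicate 3, 4H replicate 2 or 4H replicate 3. Gadd45gip1, a large subunit protein also known as CRIF1, went from 20.0 ± 1.37 to 14.7 ± 0.88 FPKM (-0.43 ± 0.07, SE, adjusted p = 0.000916), and Guf1, a translation factor that acts on stalled ribosomes, from 12.3 ± 1.33 to 9.63 ± 0.76 (adjusted p = 0.0141). Mtrf1, the remaining gene of that list, was below the filter, at 0.0225 to 0.256 FPKM. Of 24 genes that assemble the ribosome 10 were lower (41.7%, against 24.1% of all genes tested) and 1 higher (median -0.15), and without 4H replicate 3 the count lower was 6. Mrm3, which methylates the large ribosomal RNA, went from 9.98 ± 0.95 to 6.84 ± 0.77 FPKM (-0.51 ± 0.10, adjusted p = 0.0028), and Tfb1m, which methylates the small one, from 6.85 ± 0.31 to 5.23 ± 0.40 (adjusted p = 0.00546). Mrm1, another methyltransferase of the large ribosomal RNA, went the other way, from 3.76 ± 0.20 to 4.66 ± 0.45 (adjusted p = 0.0353), a call that was lost without any 1 of the libraries other than 4H replicate 2 (adjusted p up to 0.111).

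Of 16 genes for transcription and RNA upkeep in mitochondria 3 were lower (18.8%, below the 24.1% of all genes tested) and none higher (median -0.10). Lrpprc, which keeps mitochondrial messages stable, went from 36.2 ± 1.23 to 26.5 ± 1.56 FPKM (log2 fold change -0.44 ± 0.05, SE, adjusted p = 0.000228), and Tfam, which packages mitochondrial DNA and starts its transcription, from 18.6 ± 0.93 to 13.99 ± 0.83 (-0.40 ± 0.06, adjusted p = 0.000906). Of 17 mitochondrial aminoacyl-tRNA synthetases 5 were lower (29.4%) and none higher (median -0.07), led by Fars2, from 7.12 ± 0.28 to 5.14 ± 0.07 FPKM (adjusted p = 0.000761), and Tars2, from 30.4 ± 1.83 to 24.9 ± 1.503 (adjusted p = 0.00599). The median of the synthetases was -0.15 without 4H replicate 1, -0.12 without 4H replicate 2 and -0.11 without CON replicate 2. With the libraries rescaled to TPM it was -0.04.

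The messages that the mitochondrial ribosome translates had a median log2 fold change of 0.00, with 2 of 13 lower (15.4%, against 24.1% of all genes tested) and 1 higher (7.69%, against 22.6%). mt-Co3 went from 2307 ± 26.1 to 1968 ± 74.4 FPKM (-0.23 ± 0.03, SE, adjusted p = 0.00051) and mt-Co2 from 3668 ± 30.4 to 3151 ± 47.3 (-0.22 ± 0.02, adjusted p = 0.00014), both subunits of cytochrome c oxidase. The message of another subunit of that enzyme, mt-Co1, did not pass the test (-0.03, adjusted p = 0.33). mt-Nd1 of complex I rose from 3925 ± 72.9 to 4336 ± 211 (0.14 ± 0.04, adjusted p = 0.0138), and no other mt-Nd message passed. Quantile normalization, which gives the ranks of highly expressed genes the same values in every library, took mt-Co2 to a log2 fold change of 0.00 (adjusted p = 1.0), and mt-Nd1 lost its call with no filter on low genes (adjusted p = 0.0927) and also without a trend in limma. These messages are cut from shared precursors and carry short poly(A) tails, and the libraries were made from poly(A)-selected RNA. Whether their median differed from that of the members was not tested.

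Among 10 genes listed as regulators of nuclear genes for mitochondria 3 were lower (30.0%, near the 24.1% of all genes tested). In the other direction 1 was higher (10.0%, against 22.6%). Nfe2l1 went from 117 ± 4.74 to 66.8 ± 3.31 FPKM (log2 fold change -0.80 ± 0.05, SE, adjusted p = 4e-06). It is a regulator of proteasome genes that is distinct from nuclear respiratory factor 1, and it is included in these counts. Myc went from 68.8 ± 1.77 to 49.2 ± 1.47 FPKM (-0.48 ± 0.04, adjusted p = 2e-05). The remaining gene called lower was Pprc1, from 26.3 ± 1.18 to 20.6 ± 0.49 (-0.34 ± 0.05, adjusted p = 0.00051). Esrra, an orphan receptor that acts with PGC-1 coactivators, went from 11.5 ± 0.98 to 15.3 ± 0.55 (0.39 ± 0.07, adjusted p = 0.00194). Of the 6 motifs searched, the ETS, YY1 and NRF1 cores belong to GABP, YY1 and nuclear respiratory factor 1. The genes of these factors did not pass the test, with log2 fold changes of -0.10 for Gabpa, -0.06 for Gabpb1, -0.04 for Yy1 and -0.01 for Nrf1 (adjusted p of 0.15, 0.55, 0.63 and 0.96).

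**Figure D4:**
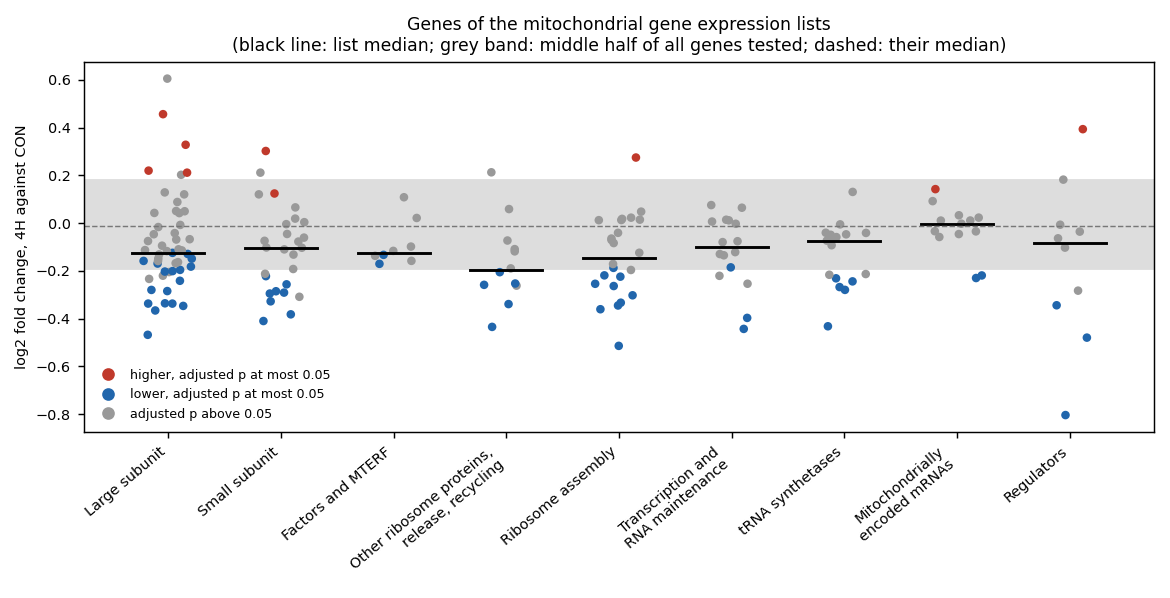
Log2 fold change in 4H against CON of each gene (points) in the subunits, the factors and 6 lists of other genes of mitochondrial gene expression, with the list medians (black lines) and, for all 11593 genes tested, the median (dashed) and the range between the quartiles (grey). Blue and red points passed an adjusted p of 0.05, and most list medians lie between -0.20 and -0.07, with that of the mitochondrially encoded messages at 0.00.

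Beside these stood the proteins of the cytosolic ribosome, of which 70 of 82 genes were lower (85.4%) and none higher in the same libraries (median log2 fold change -0.38). Of the mitochondrial subunit proteins 33.3% were lower (median -0.12), and of all genes tested 24.1% were lower and 22.6% higher. The 2 sets share their 6 libraries and the difference was not tested.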

How the data were processed

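RNA of C2C12 cells was measured by poly(A)-selected, strand-specific, paired-end sequencing (150-base reads) in 3 unstretched and 3 stretched libraries, grouped by the labels of the submitters. The authors deposited 1 table of FPKM per gene, whose build is mm10 per the submitters' processing notes. Which aligner, counting method, strand setting and annotation were used is not given in the sources used here. No counts come with the values, so depth is unknown and no counting interval could be given. Columns of other series numbered 0.

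Values were taken as log2(FPKM + 0.5) wherever the mean over libraries reached 0.5 FPKM. FPKM is no count, so limma 3.58.1 (R 4.3.3) with a trend on mean expression was used, two-sided, with Benjamini-Hochberg adjustment over 11593 genes. Calls had an adjusted p of at most 0.05, and the stricter rule added an absolute log2 fold change of 1. The fit was tested on simulated data. Fold changes on this scale understate changes of low genes. Exons, shared 75-base stretches and overlaps came from GENCODE M21 (GRCm38, the build of the files), and promoters from RefSeq.

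Named genes were the 9 added genes, the Mrps18 paralogues, in each subunit the 6 largest rises and 6 largest falls called without overlap at 5 FPKM or more, the highest and lowest means, and the 2 largest rises and falls called in each other list. Mrpl3, Mrpl48, Mrps34, Pprc1, mt-Co1 and the factors of the ETS, YY1 and NRF1 cores were named after their values were seen. Members and lists were chosen with earlier results of these data known. The alternatives were other pseudocounts, filters, variance models and scalings, a replicate block and each library left out, and, chosen after seeing the data, removal of a length and GC trend and of members with shared sequence or exons.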

Additional observations from a re-analysis of the deposited data

How the results depend on the processing

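Over the 18 alternatives the members counted as lower ranged from 19 to 29 and those counted as higher from 4 to 7, and no member passed both thresholds in any. Lower calls outnumbered higher ones in each, with 74.1% to 84.6% of the called members lower, against 42.6% to 55.1% of all called genes. Rescaling the libraries to TPM gave 20 lower and 7 higher, with a median of -0.08 beside 0.03 over all genes, and limma without a trend gave 20 and 5. Leaving out 1 library gave 19 to 25 lower and 4 to 7 higher, and 19 of the 34 called members kept their call in all 6 such fits, 15 of them lower and 4 higher (Mrpl14, Mrpl18, Mrpl34 and Mrps6). Removing a trend with length and GC content, chosen after seeing the data, gave 25 lower and 7 higher. The count of all genes past both thresholds, 450, became 245 with a filter at 5 FPKM, which tests fewer genes, and 703 after rescaling to TPM, where the cause was not tested. The labels do not say whether the samples were paired, and the deviations of equal replicate numbers correlated at 0.025, -0.093 and -0.126. The titles of the stretched libraries skip a number, and by title CON replicate 3 goes with 4H replicate 2, at 0.176. Since the 2 numberings differ, these values cannot decide whether the samples were paired. A fit with the replicate block, by replicate number, gave 26 lower and 5 higher and kept 31 of the 34 calls. In the lists of other genes lower calls ranged from 2 to 10 a list and higher calls from 0 to 2, the calls of Mrm1 and mt-Nd1 were lost with no filter on low values, that of mt-Nd1 also without a trend, and those of Mrm1 and mt-Co2 under quantile normalization. The files give no depth, which leaves the counting error of low members such as Mrpl57 unknown.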
